A study of Mus musculus with 6 samples.

Results

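The probes described here are those whose name on the array begins with mouselincRNA, 649 of the 60915 probes that are no controls. Each name holds a locus number, a strand sign and the suffix P1, so that mouselincRNA1177-_P1 is the minus-strand probe of the locus mouselincRNA1177. The members stand for 332 loci, with 322 plus-strand and 327 minus-strand probes, and 317 loci had a probe on each strand. Another 5 loci had a plus-strand and 10 a minus-strand probe alone. Each member was a single spot per array.

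RNA came from the cortex of male mice aged 8 weeks, which the labels name with no strain or genotype. There were 3 sham-operated mice and 3 mice with tMCAO, short for transient middle cerebral artery occlusion, in which a large brain artery is blocked and reopened to mimic an ischemic stroke. The tMCAO mice were killed 12 h after reperfusion, and their RNA was taken from the ischemic cortex. Each mouse gave 1 single-colour Cy3 array, and precision is limited by how few arrays there are. A fall of a transcript in such bulk tissue may come from fewer cells of a type or from less RNA per cell, which cannot be told apart. None of 25 markers of neurons, glia, endothelium, neutrophils or blood was named on the array in the tables used here, so the labelled tissue could not be checked by gene.

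Long intergenic noncoding RNAs (lincRNAs) are transcripts without a protein product that arise between protein-coding genes. Many were first found as stretches of chromatin with the histone marks of an active promoter followed by those of a transcribed gene body, and such marks carry no strand. Many are made at low level and in few cell types, the brain has a rich set of them, and some act on chromatin or on neighbouring genes. The genes and positions behind the locus numbers are not given here, so no function is stated for any member. Whether the sign in a name gives the strand of the probe or of the transcript, and whether labelling kept the strand, is stated in none of the sources used here.

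Most mouselincRNA probes gave little signal in cortex. A probe was called detected if the scanner software marked it as well above background on 3 or more arrays of the 6. By that rule 231 of 649 members (35.6%) were detected, against 32.9% of 1104 humanlincRNA probes, 50.6% of 83 MM9LINCRNAEXON probes and 74.0% of 59064 probes with a design code. Most members were above background on no array or on all 6, as were most design-code probes (21.9% and 68.7%). On 1 to 5 arrays stood 87 of the 649 members and 5566 of the 59064 design-code probes. There were 368 members (56.7%) above background on no array and 194 (29.9%) on all 6, while 50 reached it on 1 or 2 arrays and 37 on 3 to 5.

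Of the 418 members that were not detected, 190 (45.5%) still carried the software's weaker mark, a signal that is positive and significant against background, on at least 3 arrays. On no array did 161 members (24.8% of 649) carry even the weaker mark. The array also holds 15 negative probes of 20 spots each, as their names give them. Between 13.3% and 15% of those 300 spots were well above background on an array, and 2 of the 15 probes carried nearly all of them, with all 40 of their spots above background on every array. Of the 260 spots of the other 13 negative probes, between 0 and 5 (0% to 1.92%) were above it. The share of members above background was higher than either on every array.

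**Figure D1:**
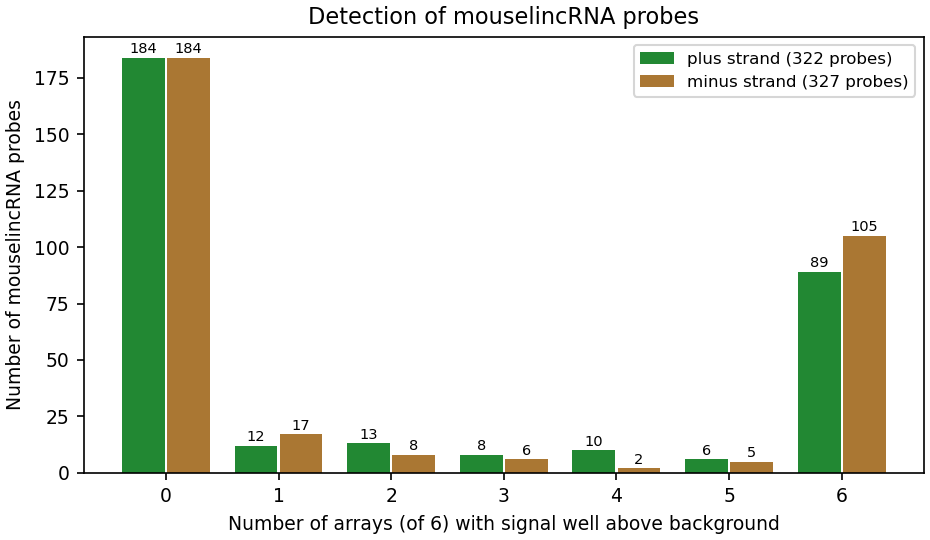
Number of mouselincRNA probes (bars) by the number of arrays, of 6, on which the probe was well above background, for the plus strand (322 probes) and the minus strand (327 probes). Both strands have 184 probes at 0 arrays, and 89 plus-strand and 105 minus-strand probes stand at 6 arrays.

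In sham, 217, 237 and 228 members were above background on replicates 1, 2 and 3, and after tMCAO 235, 241 and 222. The groups overlapped. The lowest numbers stood on sham replicate 1 and tMCAO replicate 3, which also had the lowest signal over the whole array. The 75th percentile of the signal was 555.52 and 537.17 intensity units on those arrays, and between 605.88 and 934.62 on the others. The part of overall signal in the numbers of detected members was not tested.

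Between groups, 38 members were above background on more tMCAO than sham arrays, 31 on more sham arrays, and 580 on equal numbers. The first 2 numbers were 56 and 47 for the 1104 humanlincRNA probes and 3185 and 1491 for the 59064 design-code probes. Only 3 members were above background on every array of 1 group and on none of the other. These were mouselincRNA0072-_P1 and mouselincRNA1188+_P1 with signal after tMCAO, and mouselincRNA0448+_P1 with signal in sham, and their values are given below. Over the whole array, 0.32% of probes had the first pattern and 0.023% the second.

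Of the 317 loci with a probe on each strand, 141 (44.5%) had signal on 1 strand alone, 68 of them on the plus strand and 73 on the minus strand. Another 45 loci (14.2%) had signal on both strands, and 131 (41.3%) on neither. Among the 186 loci with any signal, both strands were detected at 24.2%, so most of them were one-sided under this rule. The share depended on the mark. With the weaker mark on at least 3 arrays, 280 loci had signal, 136 of them (48.6%) on both strands. The humanlincRNA loci gave 41.0%, 12.4% and 46.6% for 1 strand, both and neither of 547 loci. None of the 15 mouselincRNA loci with a probe on 1 strand alone was detected.

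Minus-strand signal was about as frequent at loci with plus-strand signal as at loci without it. The minus strand was detected at 45 of the 113 loci with plus-strand signal (39.8%), and at 73 of the 204 loci without it (35.8%). Taken singly, 35.1% of plus-strand and 36.1% of minus-strand probes were detected, and 27.6% and 32.1% were above background on all 6 arrays. With that stricter rule 53 loci had the plus strand alone and 69 the minus strand alone. On the 6 arrays taken singly, loci with signal on both strands numbered between 40 and 49, and loci with signal on 1 strand between 134 and 151.

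The strand pattern of a locus was mostly the same in both groups. With a strand counted as present when it was above background on at least 2 of a group's 3 arrays, 288 of 317 loci had the same pattern in sham and after tMCAO. The other 29 comprised 20 loci that showed a further strand after tMCAO and 9 that showed a strand less, and 0 loci swapped one strand for the other. Among the 20 were mouselincRNA1188, which had its minus strand in sham and both strands after tMCAO, and mouselincRNA0917 and mouselincRNA1607, with the plus strand after tMCAO and neither in sham. Among the 9 was mouselincRNA0448, which had its plus strand in sham and neither after tMCAO. These patterns count marks and were not tested. Design-code probes, too, were more often above background on more tMCAO arrays (3185) than on more sham arrays (1491).

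The tMCAO arrays were compared with the sham arrays to find transcripts whose level differs after ischemia, and 231 members had enough signal to be tested among 44292 probes. Levels below are log2 signals relative to the 75th percentile of the array, and a change is the tMCAO mean minus the sham mean. One member rose and 0 fell (limma, Benjamini-Hochberg adjusted p under 0.05 over all probes), that is 1 of 231. Over the whole array 1.23% of tested probes were called higher and 0.187% lower. At an unadjusted p under 0.05, 8 members were higher and 52 lower, or 3.46% and 22.5%, while all tested probes gave 8.5% and 9.4%. The humanlincRNA probes gave 1.96% and 17.6%.

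The member that rose was mouselincRNA1177-_P1. It lay at -2.58, -2.69 and -2.65 in sham and at -1.91, -1.41 and -1.95 after tMCAO. Every tMCAO array was above every sham array, and tMCAO replicate 2 was highest. The change was 0.88 ± 0.16 log2 units (SE, 3 arrays per group), or 1.84-fold, with a 95% interval of 0.51 to 1.25 (limma, adjusted p = 0.0452). The call was near the threshold. It was lost without sham replicate 1, 2 or 3 (limma, adjusted p = 0.16, 0.128 and 0.154) and without tMCAO replicate 1 or 2 (0.122 and 0.056), and it held without tMCAO replicate 3 (0.0425). It was also lost in the authors' table (limma, adjusted p = 0.051) and with normexp background correction (0.114). In all it was lost in 12 of 19 alternatives, among them median centring (0.0566) and no filter on dim probes (0.106). In the authors' table the 1 member called was mouselincRNA0072-_P1 instead, described below. Over all alternatives the adjusted p of mouselincRNA1177-_P1 in limma ranged from 0.0208 to 0.16.

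In all, 8 of 231 members (3.46%) met the naming rule for the largest differences above sham, which asked for an unadjusted p under 0.05, groups that do not overlap, and all 3 tMCAO arrays well above background. Over the whole array 7.75% of tested probes met it. Besides mouselincRNA1177-_P1, the other 7 did not pass the test over all probes (limma, adjusted p between 0.0513 and 0.278). Of these, mouselincRNA1188+_P1 and mouselincRNA0072-_P1 were above background on no sham array, and mouselincRNA0917+_P1 and mouselincRNA1607+_P1 on 1. They met the filter of 3 arrays only with their tMCAO arrays, so that an outcome above sham was built into their selection and their p-values are no independent support for it. mouselincRNA0917+_P1 lay at -4.83, -4.35 and -4.37 in sham and at -3.74, -3.33 and -3.84 after tMCAO. Its difference was 0.88 ± 0.19 log2 units (SE; limma, adjusted p = 0.0717). Every tMCAO array was above every sham array.

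mouselincRNA1188+_P1 lay at -4.69, -4.76 and -4.85 in sham, where it was not well above background, and at -3.62, -4.03 and -4.16 after tMCAO. Its means were -4.77 and -3.94 (limma, adjusted p = 0.0513). With this processing it was at least 1.30-fold higher after tMCAO, a bound set by the lowest signal above background on each sham array. The bound does not carry over to normexp, where it differed by 0.13 ± 0.13 log2 units (SE; limma, adjusted p = 0.586). Over the alternatives its adjusted p in limma ranged from 0.0291 to 0.586, with the limit on selection just given.

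mouselincRNA0072-_P1 was likewise not above background in sham, at -4.80, -4.82 and -4.77, and lay at -4.40, -4.39 and -3.97 after tMCAO. Its bound, set in the same way, was 1.05-fold and rested on tMCAO replicate 3, so no minimum rise can be read from it. Its means were -4.80 and -4.25 (limma, adjusted p = 0.126), with the same limit on selection. Its adjusted p in limma ranged from 0.0393 with quantile normalization and 0.0406 in the authors' table to 0.919 with normexp, where the difference was -0.0333 log2 units. mouselincRNA1607+_P1, at -4.87, -4.26 and -4.50 in sham and -4.16, -4.09 and -4.09 after tMCAO, also lay slightly below sham with normexp (-0.01). Both differences were near 0 there, with standard errors above their size. That setting used median signals as well as another background correction, and the cause of the turn was not tested.

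mouselincRNA0342+_P1, mouselincRNA0538-_P1 and mouselincRNA1337+_P1 were well above background on every array. mouselincRNA0342+_P1 lay at -3.41, -3.58 and -3.25 in sham and at -2.98, -3.22 and -2.72 after tMCAO. mouselincRNA0538-_P1 lay at -3.02, -3.09 and -3.17 in sham and at -2.73, -2.66 and -2.86 after tMCAO. In both, every tMCAO array was above every sham array, by the least for tMCAO replicate 2 of mouselincRNA0342+_P1. mouselincRNA0342+_P1 differed by 0.45 ± 0.16, mouselincRNA0538-_P1 by 0.35 ± 0.11 and mouselincRNA1337+_P1 by 0.27 ± 0.12 log2 units (SE), with limma adjusted p of 0.214, 0.186 and 0.278. mouselincRNA1337+_P1 lay at -1.55, -1.41 and -1.62 in sham and at -1.38, -1.22 and -1.19 after tMCAO. The gap between its groups was small beside their spread.

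**Figure D2:**
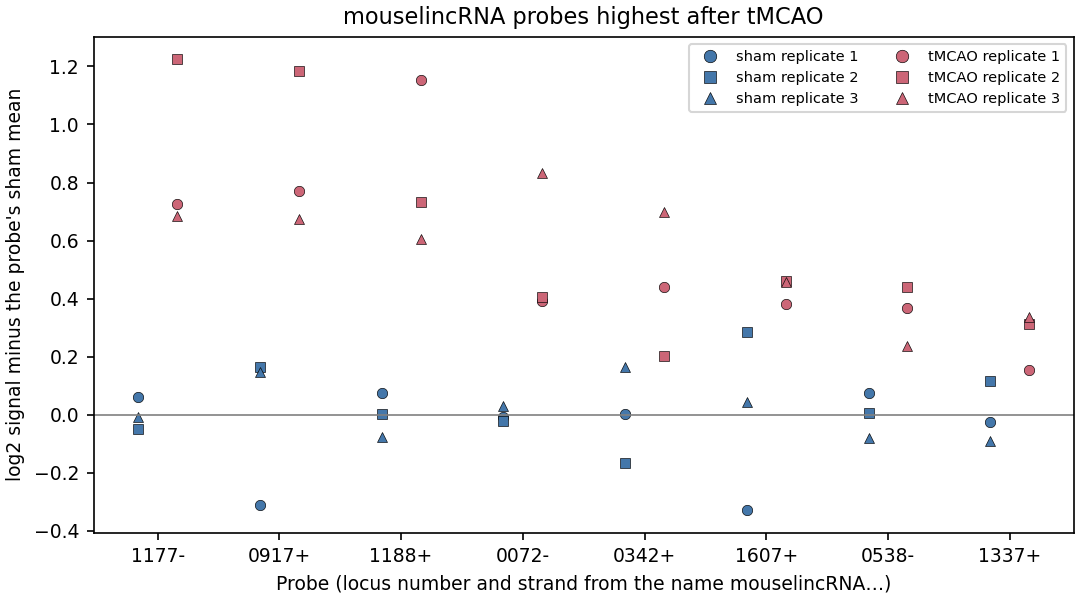
Log2 signal of 8 mouselincRNA probes minus each probe's sham mean, with 1 point per array (circle, square and triangle for replicates 1, 2 and 3; blue for sham, red for tMCAO). In every probe the 3 tMCAO points lie above the 3 sham points, by 0.88 log2 units on average in mouselincRNA1177-_P1. The sham points of mouselincRNA1188+_P1 and mouselincRNA0072-_P1 are not above background, so the gaps of those probes are no measured sizes.

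Below sham, 39 of 231 members (16.9%) met the same conditions, with signal above background on all 3 sham arrays, against 7.85% of all tested probes, and 0 passed the test over all 6 arrays. For the 8 largest the limma adjusted p lay between 0.0893 and 0.212. mouselincRNA1512+_P1 lay at -0.68, -0.84 and -0.88 in sham and at -2.10, -1.67 and -1.09 after tMCAO. Its difference of -0.82 ± 0.23 log2 units (SE) corresponds to a 1.76-fold lower signal (limma, adjusted p = 0.148). tMCAO replicate 3 was the nearest to sham.

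mouselincRNA0696+_P1 lay at 4.33, 3.99 and 3.96 in sham and at 3.23, 3.25 and 3.94 after tMCAO, a difference of -0.62 ± 0.21 (SE; limma, adjusted p = 0.203). The value of tMCAO replicate 3 almost equalled the lowest sham value, so the groups were only just separate. mouselincRNA0448+_P1 lay at -4.08, -4.21 and -4.26 in sham and at -5.03, -4.98 and -4.51 after tMCAO, where it was not well above background. With this processing it was at least 1.28-fold lower, with means of -4.18 and -4.84 (limma, adjusted p = 0.102, and 0.0278 to 0.367 over the alternatives). With normexp it differed by -0.32 ± 0.16 log2 units (SE; limma, adjusted p = 0.367). It met the filter through its sham arrays alone, so its p-values are no independent support for a lower level after tMCAO.

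mouselincRNA0786+_P1 differed by -0.51 ± 0.12 log2 units (SE) and had the lowest limma adjusted p of the 8, 0.0893. It lay at -3.09, -2.99 and -3.15 in sham and at -3.58, -3.71 and -3.46 after tMCAO, with a small spread in each group. mouselincRNA0797-_P1 lay at -2.83, -2.95 and -2.81 in sham and at -3.68, -3.54 and -3.10 after tMCAO, and mouselincRNA0963-_P1 at -2.36, -2.44 and -2.61 and at -3.28, -3.13 and -2.71. The differences of mouselincRNA0561-_P1, mouselincRNA1634+_P1, mouselincRNA0797-_P1 and mouselincRNA0963-_P1 were -0.60, -0.60, -0.58 and -0.57 log2 units. In mouselincRNA1634+_P1, sham lay between -2.59 and -2.50, and tMCAO replicates 1, 2 and 3 at -3.59, -3.14 and -2.69. In all 8 of these probes tMCAO replicate 3 lay nearer to the sham mean than replicates 1 and 2, whereas this held for 4 of the 8 probes above sham.

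**Figure D3:**
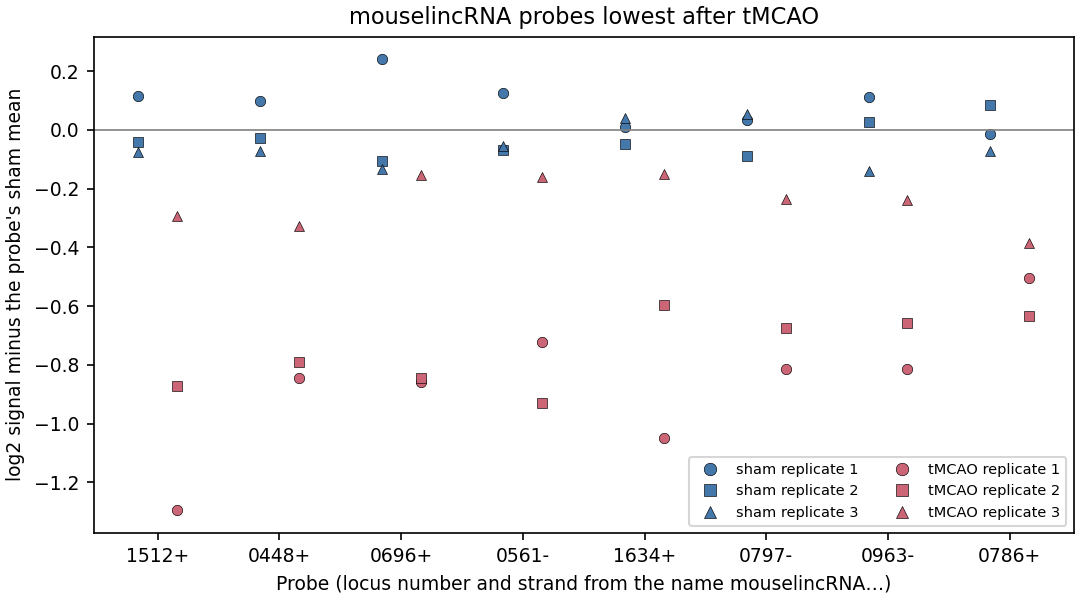
Log2 signal of the 8 mouselincRNA probes farthest below sham by the naming rule, minus each probe's sham mean, with 1 point per array (symbols for replicates, blue for sham, red for tMCAO). The red triangle of tMCAO replicate 3 is the tMCAO point nearest to 0 in each of the 8 probes.

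Leaving out tMCAO replicate 3 altered the calls. Without it, 2 members were higher and 8 lower (limma, adjusted p under 0.05), against 1.58% and 0.562% of all 44149 probes then tested. Among 354 humanlincRNA probes 1 was then higher and 7 lower (1.98%). The 8 lower members made up 3.46% of 231. They were mouselincRNA1512+_P1, at -1.08 log2 units, mouselincRNA0696+_P1 (-0.85), mouselincRNA0561-_P1 (-0.83), mouselincRNA0448+_P1 (-0.82), mouselincRNA0797-_P1 (-0.75) and mouselincRNA0963-_P1 (-0.74), as well as mouselincRNA1311-_P1 (-1.25) and mouselincRNA1551-_P1 (-1.02). The last pair are named after their values were seen. On tMCAO replicate 3, mouselincRNA1311-_P1 lay at -3.82, above its sham range of -4.58 to -4.06. There mouselincRNA1551-_P1 lay at -3.20, inside its sham range of -3.31 to -2.95. mouselincRNA1311-_P1 was above background on only 2 sham arrays and 1 tMCAO array. The filter still counted the array left out, and most tMCAO values of this probe were not above background. Its -1.25 is therefore no measured size. The 2 higher members were mouselincRNA1177-_P1 and mouselincRNA1188+_P1. For mouselincRNA1188+_P1 and mouselincRNA0448+_P1 the limit on selection holds here too, and in large part for mouselincRNA1311-_P1.

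Some members had a difference that rested mostly on 1 array. These were also named after their values were seen. The largest mean difference among tested members was that of mouselincRNA1040+_P1, at -1.83, -1.36 and -1.62 in sham and -0.65, 2.05 and -1.39 after tMCAO. Its difference of 1.61 ± 0.76 log2 units (SE; limma, adjusted p = 0.309) rested mostly on tMCAO replicate 2, and its groups overlapped. Replicate 1 was also above every sham array. The most negative was that of mouselincRNA0161-_P1, at 8.20, 8.05 and 8.13 in sham and 7.89, 5.09 and 8.31 after tMCAO, where replicate 2 alone was low (limma, adjusted p = 0.461). They were the only 2 members whose means differed by at least 2-fold, or 0.866% of those tested, against 1.68% of all tested probes. mouselincRNA0971+_P1 lay at -4.14, -4.13 and -2.30 in sham and at -4.37, -4.83 and -4.36 after tMCAO, with no overlap (limma, adjusted p = 0.298). Its sham replicate 3 stood far above the other arrays. It was above background on at least 2 of the 3 sham arrays but not on 2 of the tMCAO arrays. The filter was thus met mostly through sham, and the limit on selection holds in large part here too. Most of its tMCAO values were not above background.

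The members as a whole lay below sham after tMCAO. Of the 231 tested, 197 (85.3%) had a change below 0, and the median change was -0.24, with a middle range from -0.37 (25th percentile) to -0.08 (75th percentile). The median was -0.24 for 358 humanlincRNA probes, -0.15 for 41 MM9LINCRNAEXON probes and -0.05 for 43647 design-code probes, of which 57.4% were below 0. The groups did not overlap for 11 members above sham (4.76%) and 50 below it (21.6%), against 11.6% and 13.1% of all tested probes. Members had been chosen by name with such results of these arrays known, so these shares are a description with no test.

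The low values were those of tMCAO replicates 1 and 2. Relative to the sham mean, the median member stood at -0.32, -0.36 and -0.02 in tMCAO replicates 1, 2 and 3, beside -0.01, -0.06 and 0.04 in the sham replicates. On the same arrays the median design-code probe lay at 0.01, -0.01 and -0.01 in sham and at -0.05, -0.09 and 0.01 after tMCAO. By the 75th percentile, tMCAO replicates 1 and 2 were the brightest arrays (934.62 and 918.55 intensity units) and replicate 3 was the dimmest (537.17). The part of array brightness in the shift was not tested.

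Among the 230 members with a value on every array, tMCAO replicate 3 was nearer to the sham mean than to the mean of replicates 1 and 2 in 173 (75.2%), against 57.8% of 44103 probes of all kinds and 81% of humanlincRNA probes. For 129 members (56.1%) tMCAO replicates 1 and 2 were both below every sham array, against 30.5% of all probes, and replicate 3 was below them too in 50 of the 129 (38.8%, against 43% of all such probes). For 14 members (6.09%, against 17.5% of all probes) both were above every sham array, and replicate 3 joined them in 11.

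**Figure D4:**
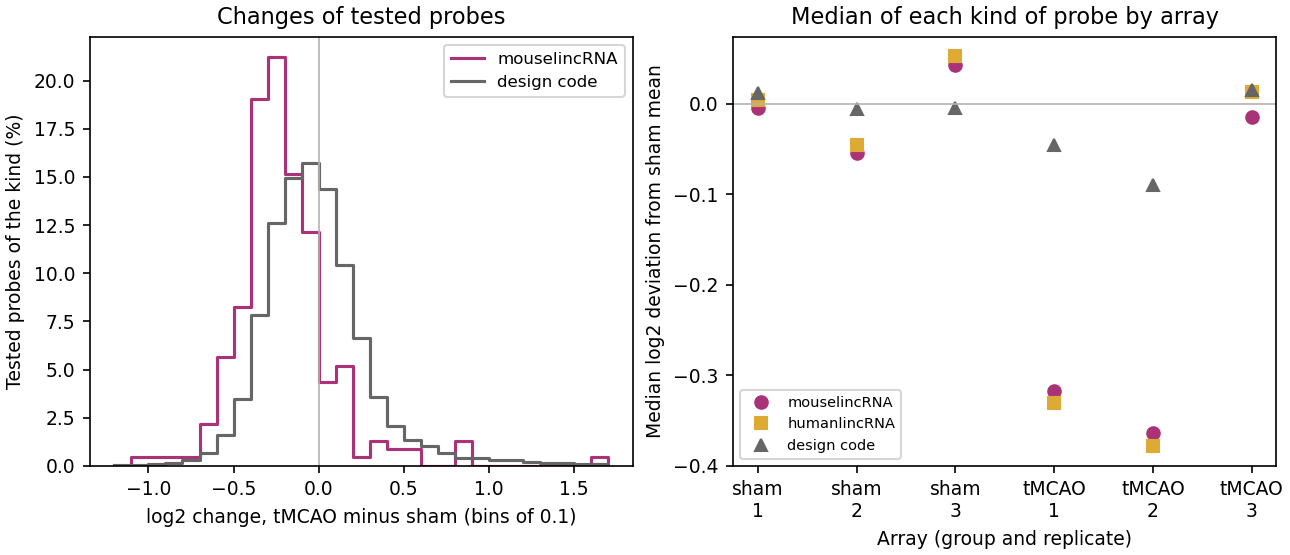
Left, share (%) of tested probes of each kind by log2 change after tMCAO in bins of 0.1, for 231 mouselincRNA and 43647 design-code probes. Right, median log2 deviation from the sham mean on each array for mouselincRNA, humanlincRNA and design-code probes, which for mouselincRNA falls to -0.32 and -0.36 on tMCAO replicates 1 and 2 and returns to -0.02 on replicate 3.

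The low values were found on both strands, and were less frequent among the brightest members. The median change was -0.24 for both the 113 plus-strand and the 118 minus-strand probes. It was -0.22 for 37 members above background on 3 to 5 arrays and -0.24 for 194 above it on all 6. With tested probes ranked by mean signal and split into 3 bands of equal size, 148 members fell in the dimmest, 59 in the middle and 24 in the brightest. Their medians were -0.23, -0.27 and -0.14, beside -0.12, -0.07 and 0.02 for design-code probes of the same bands. For humanlincRNA probes of those bands they were -0.24, -0.26 and -0.22. The shares of members with a change below 0 were 88.5%, 86.4% and 62.5%. The 57.4% of design-code probes below 0 was taken over all bands, so it is not matched to any of these shares.

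The spread between replicates was close to that of the other lincRNA probes. The SD of a member had a median of 0.17 log2 units for sham and 0.25 for tMCAO, against 0.17 and 0.28 for humanlincRNA, 0.14 and 0.27 for MM9LINCRNAEXON and 0.13 and 0.18 for design-code probes. The SD was larger in tMCAO for 72.7% of members, 75.7% of humanlincRNA probes and 66% of all tested probes. The median SE of a change was 0.16 for members, 0.17 for humanlincRNA and 0.14 for design-code probes.

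The position field of the file headers put sham and tMCAO replicates 1 and 2 in row 1 and both replicates 3 in row 2. The header gave 1 scan time for all 6 arrays. Within row 1 the median member change was -0.32, and in row 2, with 1 array per group and no test, it was -0.08. The design-code medians were -0.07 and 0.01. With the row as a block, 1 member was called (mouselincRNA1188+_P1, with the limit on selection given above), and the median change stayed at -0.24. The call of mouselincRNA1177-_P1 was lost there (limma, adjusted p = 0.056).

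The strands of a locus were then compared in how they changed, over the 45 mouselincRNA loci tested on both. At 30 loci both strands had a change below 0, at 0 both were above 0, and at 15 the strands had opposite signs. Of 66 humanlincRNA loci, the numbers were 43, 1 and 22. At the mouselincRNA loci the median change was -0.22 on the plus and -0.24 on the minus strand. Across these 45 loci, which share the same 6 arrays, the correlation of the changes was 0.03 (Spearman's rho 0.16). A difference in change between strands passed the test at 0 of 45 loci (limma over 111 lincRNA loci, of which 0% were called), while 7 of 45 had an unadjusted p under 0.05, as did 4 of 66 humanlincRNA loci. For 8 of the 45 the groups did not overlap in the difference, against 15.3% of all 111 loci.

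Of these, mouselincRNA1606, mouselincRNA1188, mouselincRNA1177, mouselincRNA0435 and mouselincRNA0538 had the largest differences, with limma adjusted p between 0.341 and 0.452. At mouselincRNA1606 the minus strand lay at 8.05, 8.71 and 8.59 in sham and at 8.72, 8.93 and 8.89 after tMCAO. The plus strand lay at -1.37, -1.21 and -1.12 in sham and at -2.63, -1.61 and -1.14 after tMCAO. The change on the plus strand was lower than on the minus strand by 0.96 log2 units, that is -0.96 ± 0.34 (SE; limma, adjusted p = 0.408). On the minus strand every tMCAO array was above every sham array, but only just, with 8.72 on tMCAO replicate 1 against 8.71 on sham replicate 2. The minus-strand change alone did not pass the test over all probes (limma, adjusted p = 0.292). On the plus strand tMCAO replicate 3 lay inside the sham range.

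At mouselincRNA1177 the minus-strand rise given above stood beside a plus-strand change of -0.02, a difference of -0.90 ± 0.24 log2 units (SE; limma, adjusted p = 0.341). The plus strand there was dim, above background on 2 arrays of each group. At mouselincRNA1188 the plus strand was not above background in sham, so the size of its strand difference was not measured (limma, adjusted p = 0.341). The minus strand lay at -2.09, -2.53 and -2.62 in sham and at -2.40, -2.60 and -2.45 after tMCAO, with overlapping groups. At mouselincRNA0435 the changes were 0.13 on the plus and -0.56 on the minus strand, and at mouselincRNA0538 -0.14 and 0.35.

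On both strands at once the groups were separate at 2 of 45 loci, both below sham. The same held for 3 of 66 humanlincRNA loci, all below sham. Of the 2 mouselincRNA loci, mouselincRNA0522 had changes of -0.27 ± 0.12 on the plus and -0.30 ± 0.12 log2 units on the minus strand (SE; limma, adjusted p = 0.293 and 0.26). At mouselincRNA1117 they were -0.23 ± 0.12 and -0.38 ± 0.11 (SE; limma, adjusted p = 0.343 and 0.158). Its plus strand lay at -2.23, -2.35 and -2.12 in sham and at -2.45, -2.59 and -2.36 after tMCAO. On neither strand of either locus was the test over all probes passed.

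**Figure D5:**
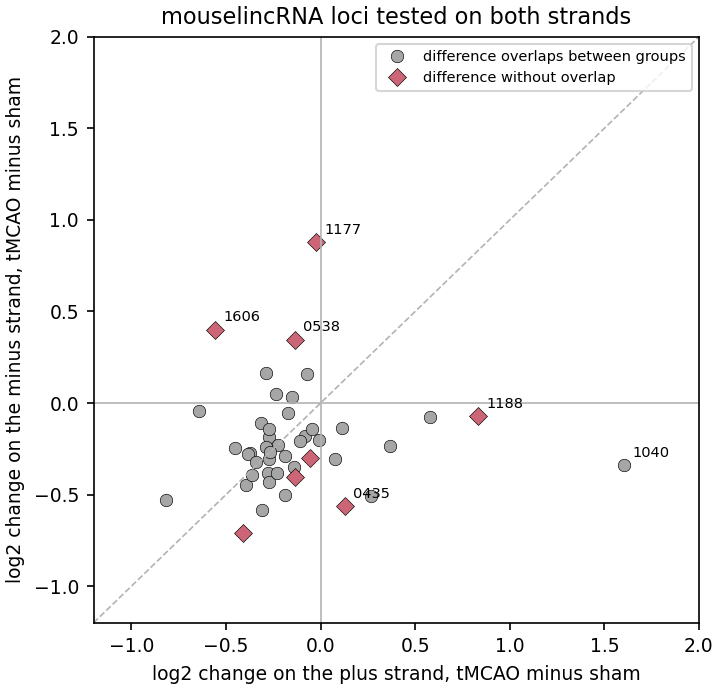
Log2 change after tMCAO on the plus strand (horizontal axis) and the minus strand (vertical axis) for the 45 mouselincRNA loci tested on both, with equal change along the dashed line. Red diamonds mark the 8 loci whose strand difference did not overlap between groups, and most loci lie in the lower left, where both changes are below 0 (30 of 45).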

How the data were processed

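The deposited scanner files hold spot intensity on a linear scale. Their software, in the submitters' processing notes, is Agilent Feature Extraction 11.0.1.1. The signal has background subtracted and the design's build is mm9, per the file headers, and arrays are not yet scaled to each other. The authors' table of log2 normalized values, whose method and centring are not given in the sources used here, served as an alternative and held all 649 members. Its columns correlated with the arrays' own log2 signals at 0.9999 or more, and their medians lay between 6.895 and 6.897. For mouselincRNA1177-_P1 and mouselincRNA0072-_P1 it gave the same changes as quantile normalization, 0.9229 and 0.6149 log2 units. For these probes the 2 alternatives therefore repeat each other in size of change.

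Per array, 61500 of 62939 spots were not controls, and 300 spots of negative probes were left out of tests. The processed signal was log2-transformed, the array's 75th percentile was subtracted, and spots with an outlier mark were dropped (1 member spot, on sham replicate 3). No member spot was saturated. Probes above background on at least 3 of 6 arrays with 2 values per group were tested with limma 3.58.1 in R 4.3.3 (two-sided, Benjamini-Hochberg over 44292 probes, threshold 0.05), after a check on simulated data. Strand differences (plus minus minus, per array) were tested the same way over 111 mouselincRNA and humanlincRNA loci. The planned normexp setting used median signals. Scan time was the same for all arrays, so no block for it was possible. No locus and strand had a second probe to compare.

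Arrays correlated at 0.99451 to 0.99538 in sham and 0.99061 to 0.99305 in tMCAO. The naming rule took members past the threshold, the 8 largest rises and 8 largest falls with an unadjusted p under 0.05, no overlap and signal on all 3 arrays of the higher group, members above background in 1 group alone, and up to 5 loci for each strand pattern. Members and lists were chosen with earlier results of these data known. Plots were drawn with matplotlib 3.10.9.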

Additional observations from a re-analysis of the deposited data

How the results depend on the processing

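The median change of the members stayed below 0 under all 19 alternatives, between -0.3486 (without tMCAO replicate 3) and -0.1681 (median centring). The count of called members was small and moved with the setting. It was 0 with normexp, with median centring, with no filter on dim probes, and on the arrays of position row 1 alone, 2 with quantile normalization, and 3 with array weights (2 higher, 1 lower). Without 1 array it ranged from 0 to 10, the latter without tMCAO replicate 3. With replicate number as a block it was 0. The change then differed between strands at 6 of 111 lincRNA loci (among them mouselincRNA1040, mouselincRNA1177, mouselincRNA1188 and mouselincRNA1606), against 0 without the block. For the plus strand of mouselincRNA1188 the limit on selection holds, and at mouselincRNA1040 the groups overlapped in the difference. Deviations of same-numbered arrays correlated at 0.0188, 0.0975 and 0.124 over all tested probes and at 0.25, 0.08 and 0.205 over the members, for replicates 1, 2 and 3. The members' values exceeded those of all differently numbered arrays (-0.235 to 0.0239), but not every pair was above 0.1, so the numbers were not taken to pair the samples. The differences of mouselincRNA0072-_P1 and mouselincRNA1607+_P1 turned to -0.0333 and -0.01 with normexp. The other named rises were also smaller there. mouselincRNA1177-_P1, mouselincRNA0917+_P1 and mouselincRNA1188+_P1 came to 0.53, 0.21 and 0.13 log2 units. mouselincRNA0342+_P1, mouselincRNA0538-_P1 and mouselincRNA1337+_P1 came to 0.11, 0.11 and 0.21. The 8 named falls ran from -0.82 to -0.51 in the main setting and from -0.68 to -0.32 with normexp. The cause was not tested. With the weaker mark of a positive and significant signal, 421 members were detected and 136 loci had both strands. Under the other detection rules the count of detected members lay between 194 and 281. The settings for the position row and for outlier marks in detection were chosen after seeing the data. Signal near background limits the dim members most.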
